A study of Mus musculus with 2 samples.

Results

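Among microRNA (miRNA) genes with a row in the deposited count tables and a known position, 6 lie inside the mouse Hox clusters. Their levels were described in the limb of embryos at day 15.5. The genes are Mir10a, Mir10b, Mir196a-1, Mir196a-2, Mir196b and Mir615. The rule that chose them goes by symbol and uses no measured value, and they make up 6 of the 1973 miRNA genes counted. The 4 Hox clusters were searched from the outermost Hox gene on one side to the outermost on the other. Among the 1894 counted genes with a position, the search found these 6 and 0 others.

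Per the labels, limb tissue of Mus musculus strain B6NCrl embryos, both sexes mixed and healthy, was taken at 15.5 days. Limbs of 78 embryos made up replicate 1 and limbs of 62 embryos made up replicate 2, so each value is the average of a large pool. Small RNA below 30 nt was sequenced from total RNA. The labels name no second tissue, stage, genotype or treatment, and they do not say how forelimbs and hindlimbs were combined. The questions that the design allows are therefore how abundant each gene was, how the genes compare with each other, and how far the pools differed.

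Hox genes encode transcription factors that give position along the body axis and along the limb, and they lie in 4 clusters in which gene order follows the order of expression. A miRNA is processed from a hairpin and lowers the output of messenger RNAs that it pairs with, mainly through its seed, bases 2 to 8. The miR-10 and miR-196 families lie between Hox genes at matching places in several clusters, and many of their known targets are Hox messenger RNAs. In the limb, miR-196 is known for repressing Hoxb8, a Hox gene linked to the signal that patterns the limb from front to back, and for being more abundant in hindlimb than in forelimb.

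The mature sequences are shown because they decide both which messages the miRNAs can pair with and which gene a read can be counted for. They are from RefSeq on GRCm38.p6, where 6 of 6 genes had an entry. Capitals mark the seed, and sequences run 5′ to 3′.
miR-10a-5p: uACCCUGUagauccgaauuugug
miR-10b-5p: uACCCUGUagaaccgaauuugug
miR-196a-5p: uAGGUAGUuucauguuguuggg
miR-196b-5p: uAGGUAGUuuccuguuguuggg
miR-615-3p: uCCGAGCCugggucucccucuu
miR-615-5p: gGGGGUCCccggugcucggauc

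The 5p sequences of the miR-10 and miR-196 genes fall into 2 seed groups. miR-10a-5p and miR-10b-5p share the seed ACCCUGU and are identical at 22 of 23 bases, with U12A as the only difference (positions from the 5′ end, the base of miR-10a first). miR-196a-5p and miR-196b-5p share the seed AGGUAGU and are identical at 21 of 22 bases, with A12C as the only difference. In both pairs the difference is at position 12, outside the seed. Among 1455 mature sequences of the counted genes, none outside these pairs had either of these seeds, and neither arm of miR-615 shared its seed with another.

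Mir196a-1 and Mir196a-2 give the same mature miR-196a-5p from different precursors. Their precursors are shown because the counts of these genes turn on them, and capitals mark the mature arms.
Mir196a-1: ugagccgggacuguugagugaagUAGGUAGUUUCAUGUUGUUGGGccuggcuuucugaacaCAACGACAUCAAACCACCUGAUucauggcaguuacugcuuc
Mir196a-2: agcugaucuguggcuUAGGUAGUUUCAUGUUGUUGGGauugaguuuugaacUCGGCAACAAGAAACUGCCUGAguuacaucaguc
The longest stretch common to the pair was 22 bases, exactly the mature 5p sequence. The flanking bases differ on both sides, with aag before and ccu after in Mir196a-1, and gcu before and auu after in Mir196a-2. The 3p arms also differ. A read of the exact 5p sequence matches both precursors, and reads with several alignments entered no gene. The counts of Mir196a-1 and Mir196a-2 therefore leave out reads that align to both, and how much RNA each gene gives cannot be read from them. No other member shared a stretch of 20 bases with any other counted precursor. The longest was 15 bases for Mir10a with Mir10b, 14 for Mir615 and 12 for Mir196b.

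By position, the miR-10 genes lie before the group 4 Hox genes and the miR-196 genes before the group 9 Hox genes. Positions are on mm10 from GENCODE M21. Mir10a (chromosome 11, plus strand, 96317165 to 96317274) lies 1496 bases before the coding region of Hoxb4 and overlaps no other gene on its strand. Mir10b (chromosome 2, plus strand, 74726070 to 74726137) lies 1142 bases before that of Hoxd4, within introns of Hoxd4 and Hoxd3 transcripts. The miR-10 places in HoxB and HoxD thus match closely.

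Mir196b (chromosome 6, minus strand, 52230081 to 52230165) lies between Hoxa10 and Hoxa9, 3977 bases before the Hoxa9 coding region. An exon covers it in 2 of the 3 Hoxa9 transcripts that span it. Mir196a-1 (chromosome 11, plus strand, 96265164 to 96265265) lies 6277 bases before the coding region of Hoxb9, with no gene on its strand there. Mir196a-2 (chromosome 15, plus strand, 102973350 to 102973434) lies between Hoxc10 and Hoxc9, 8219 bases before the latter, and within an intron of a long Hoxc5 transcript. Mir615 (chromosome 15, plus strand, 103014910 to 103015001) lies inside Hoxc5, in an intron of both transcripts that span it. It is the only member with no relative in another Hox cluster among the counted genes.

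**Figure D1:**
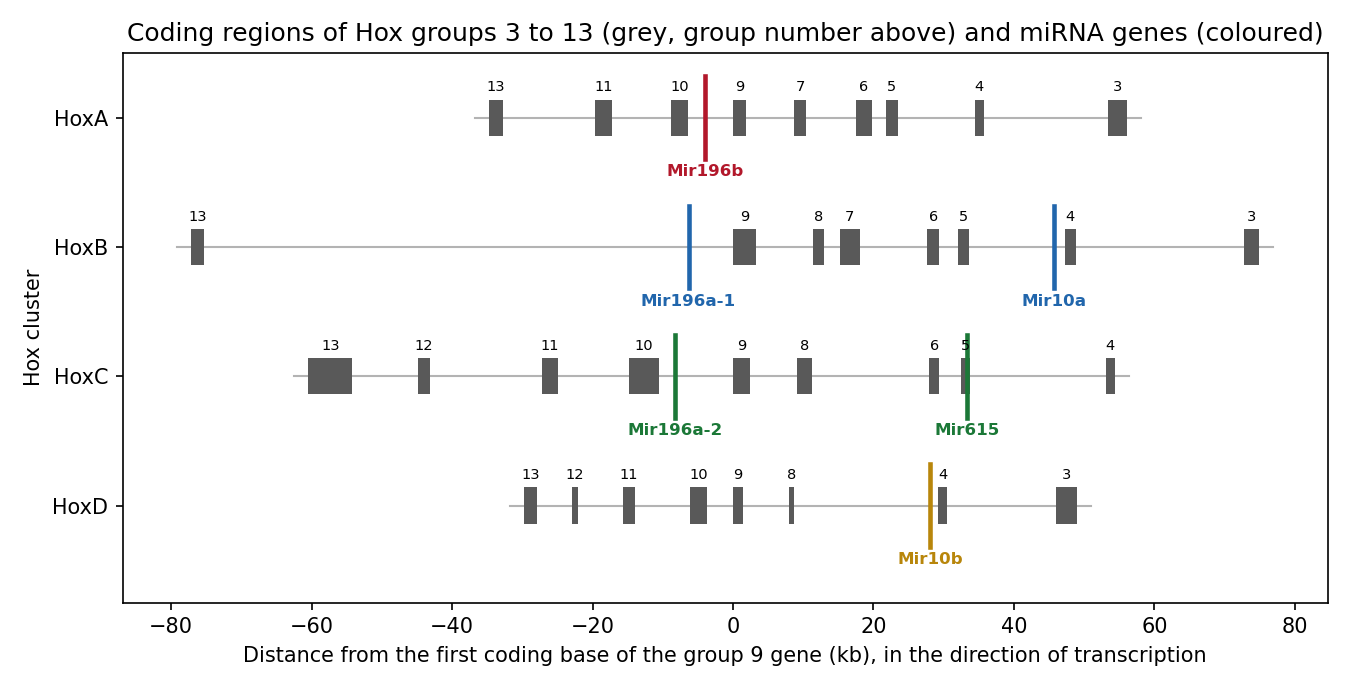
Coding regions of the Hox genes of groups 3 to 13 (grey, group number above) and the 6 miRNA genes (coloured lines) in the 4 Hox clusters, by distance in kb from the first coding base of the group 9 gene, drawn in the direction of transcription. The 3 miR-196 genes sit just before group 9 and the 2 miR-10 genes just before group 4.

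The libraries held 4263630 (replicate 1) and 5151214 (replicate 2) sense counts over miRNA genes. Levels are sense counts per 1000000 of these totals (CPM), and each ± is an SD (n = 2). A gene with 0 counts could still have up to 3 counts, or 0.704 and 0.582 CPM. Intervals are 95% Wilson intervals and cover counting error only. Limb tissue was represented by markers of cartilage (Mir140, 43941 and 42385 CPM), epidermis (Mir203, 67775 and 77287 CPM) and skeletal muscle (Mir206, 11050 and 4787 CPM). Of 5 counted neuronal miRNA genes, 4 had 0 counts in both replicates, though these genes too have copies with the same mature sequence. The listed islet, liver, erythroid and leukocyte markers were all detected. Mir375 had 572 and 658 CPM, Mir122 57.5 and 86.2, Mir451a 339 and 325, and Mir223 427 and 440. In bulk tissue, fewer cells of a type and less RNA per cell cannot be told apart.

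All 6 Hox cluster genes reached 10 sense counts in each library, the minimum used here for a detected gene, which 340 genes met. Their mean levels ranged from 8.94 to 40763 CPM. Mir196b of HoxA was far above the rest, Mir10b of HoxD and Mir10a of HoxB followed, both HoxC genes lay under 1000 CPM, and Mir196a-1 of HoxB was close to the detection limit. The values of Mir196a-1 and Mir196a-2 leave out the shared miR-196a-5p reads, so their places in this order hold for counted reads only. Mature lengths are 22 or 23 bases, so counts were not divided by length. Unequal capture of the sequences during library construction was not tested.

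Mir10b (ENSMUSG00000065500.2), which lies beside Hoxd4, had 35246 counts in replicate 1 and 41990 in replicate 2. These were 8267 and 8151 CPM, a mean of 8209 ± 81.5 CPM (SD, n = 2). It ranked 28 and 27 among all counted genes, and the replicates were close together. Mir10a (ENSMUSG00000065519.1), its counterpart beside Hoxb4, had 13858 and 17653 counts, or 3250 and 3427 CPM (mean 3339 ± 125), and ranked 56 in both. Within each library Mir10b exceeded Mir10a, by 2.54-fold in replicate 1 (exact 95% interval 2.49 to 2.59) and 2.38-fold in replicate 2 (2.34 to 2.42). These intervals do not overlap, so the balance of the pair differed between the pools by more than counting error, though by little in size.

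Mir196b (ENSMUSG00000065443.1), the miR-196 gene of HoxA, had 153040 and 235058 counts. Its levels were 35894 and 45632 CPM, with a mean of 40763 ± 6885 (SD, n = 2), and it ranked 9 and 7 among the 1973 genes. Of all sense counts, 3.59% in replicate 1 belonged to it (interval 3.57 to 3.61) and 4.56% in replicate 2 (4.55 to 4.58). It was above every other member in both replicates, at 4.34 times Mir10b in replicate 1 and 5.60 times in replicate 2.

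Mir196a-2 (ENSMUSG00000065488.1), in HoxC, had 3099 and 4484 counts, or 727 and 870 CPM (mean 799 ± 102). Mir196a-1 (ENSMUSG00000065546.1), in HoxB, had 39 and 45 counts, or 9.15 and 8.74 CPM (mean 8.94 ± 0.291, SD, n = 2). The counted reads of Mir196a-2 thus outnumbered those of Mir196a-1 in both libraries, by 79.5-fold (exact 95% interval 58.0 to 112) and 99.6-fold (74.3 to 137). The mature 5p sequence that both genes share cannot enter this ratio. Mir196b exceeded Mir196a-2 by 49.4-fold and 52.4-fold, but reads of miR-196a-5p are missing from the lower value, so this is not a ratio of miR-196b to miR-196a.

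Loss of shared reads is not particular to miR-196a. Of the counted genes with a mature sequence in RefSeq, 97 had at least 1 that also occurs whole in another counted precursor, and 40 of them were detected, with a median of 51.6 CPM. Of the 819 others, 271 were detected, with a median of 195.6 CPM. These medians are a description of these tables and were not tested.

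Mir615 (ENSMUSG00000076010.1), in the Hoxc5 intron, had 3310 and 4654 counts, or 776 and 903 CPM (mean 840 ± 89.9, SD, n = 2). Its range overlapped that of Mir196a-2, its neighbour in the order of levels and in the HoxC cluster. Within the libraries the ratio of Mir615 to Mir196a-2 was 1.07 (exact 95% interval 1.02 to 1.12) and 1.04 (0.996 to 1.08). The order of their counted reads was thus not resolved in replicate 2. Reads of miR-196a-5p are missing from Mir196a-2 alone, so this ratio does not compare the output of the genes in either replicate. Every other neighbouring pair in the order of levels had replicate ranges that did not overlap. Mir10a, the next gene above, was 4.19 and 3.79 times Mir615.

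**Figure D2:**
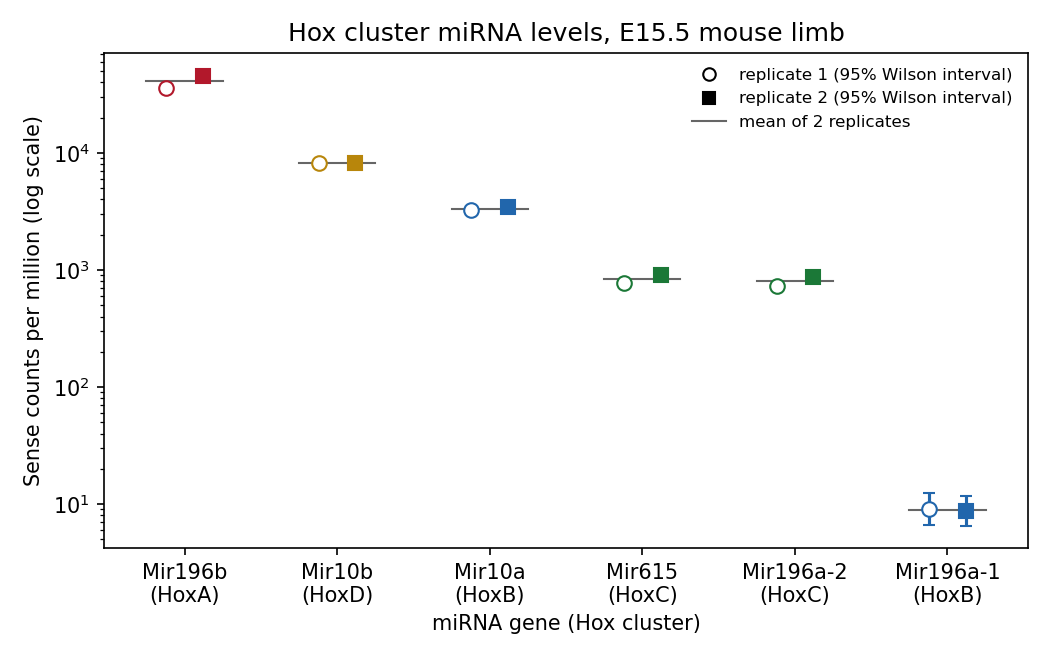
Sense CPM (log scale) of the 6 genes in replicate 1 (open circles) and replicate 2 (filled squares), with 95% Wilson intervals and the mean as a line, coloured by Hox cluster. Mir196b lies highest at 35894 and 45632 CPM and Mir196a-1 lowest at 9.15 and 8.74 CPM. The values of Mir196a-1 and Mir196a-2 leave out the shared miR-196a-5p reads.

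Grouped by cluster, HoxA supplied most of the Hox miRNA counts through its single gene. HoxA held 75.4% ± 2.82 of the counts of the 6 genes, HoxD 15.4% ± 2.18, HoxB 6.24% ± 0.593 and HoxC 3.04% ± 0.0463 (SD, n = 2). The HoxB and HoxC shares leave out the shared miR-196a reads. Together the 6 genes took 4.89% of the sense counts of replicate 1 and 5.90% of replicate 2. Without Mir196b the other 5 genes took 1.30% (interval 1.29 to 1.31) and 1.34% (1.33 to 1.35), so nearly all of the difference lay in Mir196b.

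Grouped by family, the summed share of the miR-10 genes differed little between the replicates. That of the miR-196 genes, nearly all Mir196b as counted, differed more. The miR-196 sum leaves out the shared miR-196a reads, so the part of Mir196b in it and the ratio below hold for counted reads only. The 2 miR-10 genes held 1.15% and 1.16% of the sense counts, while the 3 miR-196 genes held 3.66% and 4.65%. The ratio of the miR-196 sum to the miR-10 sum was 3.18 in replicate 1 (exact 95% interval 3.15 to 3.21) and 4.02 in replicate 2 (3.98 to 4.05), a mean of 3.60 ± 0.591 (SD, n = 2). This ratio is taken within a library, so it does not depend on how the libraries are scaled.

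**Figure D3:**
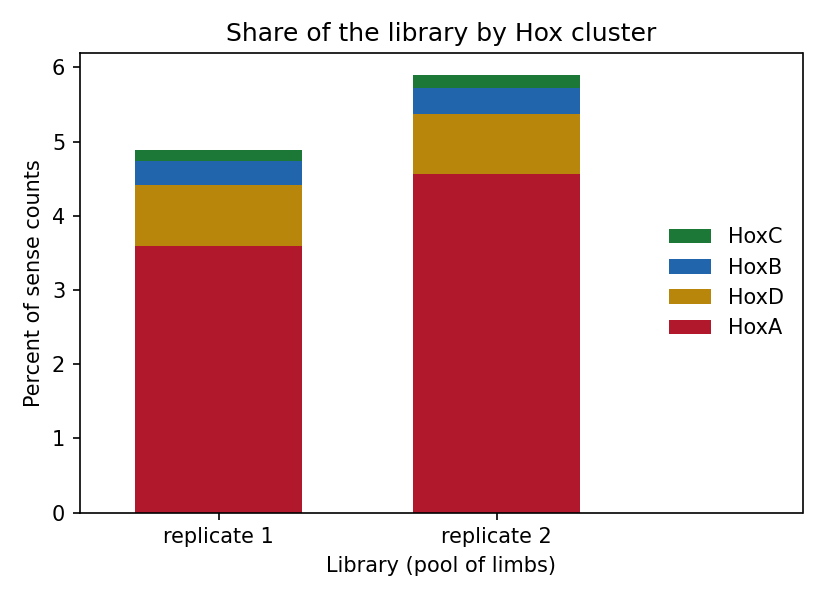
Percent of the sense counts of each library taken by the Hox cluster miRNA genes, stacked by Hox cluster, for replicates 1 and 2. The bars reach 4.89% and 5.90%, and the HoxA part (Mir196b) grows from 3.59% to 4.56%.

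Between the pools, 4 of the 6 genes were higher in replicate 2 past an adjusted p of 0.05 and 0 were lower, nor was any lower at an unadjusted p under 0.05 by this exact test or by edgeR's. The test was the exact two-sided binomial test given the library totals, with Benjamini-Hochberg adjustment over the 340 detected genes. It sets the pools against counting error alone, with no condition involved. Of all detected genes 25.3% were called higher and 25.6% lower (50.9% in either direction), so calls were common at this depth. They were more common among genes with more counts. With at least 100 counts required, which 5 members met, 34.0% of 247 genes were called higher and 33.6% lower, and 4 members were called higher. The median log2 ratio of replicate 2 over replicate 1 was 0.15 for the 6 genes and 0.02 for all detected genes.

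Mir196b was 1.27-fold higher in replicate 2 (exact 95% interval 1.26 to 1.28, log2 ratio 0.35), with a p too small to be resolved by the computation. Of the detected genes at any count level, 243 had a smaller and 96 a larger log2 ratio in either direction. The larger ratios included those of genes with few counts, such as Mir215 (17 and 48 counts, log2 ratio 1.22). They also included those of abundant genes that were lower in replicate 2, such as Mir127 (-0.44). The rank of Mir196b was not taken among genes of like level and direction. Mir196a-2 was 1.20-fold higher (1.14 to 1.25, adjusted p = 3.96e-14, exact binomial test) and its HoxC neighbour Mir615 was 1.16-fold higher (1.11 to 1.22, adjusted p = 8.22e-11, exact binomial test). Mir10a was 1.05-fold higher (1.03 to 1.08, adjusted p = 9.06e-06, exact binomial test).

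Mir10b had a log2 ratio of -0.02 and an interval of 0.972 to 1.00 for the fold (adjusted p = 0.0955, exact binomial test). Mir196a-1 had a log2 ratio of -0.07, and its 39 and 45 counts left an interval from 0.608 to 1.51 for the fold. A difference of the size seen in Mir196b was not detectable for it at these counts.

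edgeR's exact test, with a common dispersion estimated from both libraries as 1 group (a biological coefficient of variation of 14.7%), called 3 of 340 genes, all lower in replicate 2, and 0 of the 6 members, with 0 members at an unadjusted p under 0.05. The 1.27-fold difference of Mir196b had a p of 0.251 in that exact test. The dispersion came from the same difference between the pools that was then tested, so few genes could pass, and these p-values say little about the members.

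Markers of other cell types and a group of genes on chromosome 12 were also called between the pools, in both directions, by the same exact binomial test. Those called higher in replicate 2 included the epidermal Mir203 (1.14-fold) and Mir205 (1.07-fold), the endothelial Mir126a (1.06-fold) and the mesenchymal Mir214 (1.16-fold). Also called higher were Mir375 (1.15-fold), listed here as an islet marker, and Mir122 (57.5 and 86.2 CPM), listed as a liver marker. The cell source of Mir375 and Mir122 in the limb was not tested. The cartilage genes Mir140 (0.965-fold) and Mir455 (0.866-fold) and the mesenchymal Mir143 (0.817-fold) were called lower, and the erythroid Mir451a (0.959-fold) and leukocyte Mir223 (1.03-fold) were not called. Their part in the differences of the Hox cluster genes was not tested. The 4 skeletal muscle markers Mir206, Mir133b, Mir499 and Mir208b were lower in replicate 2 in 4 of 4 cases, from 11549 to 4985 CPM in sum. The miRNA genes between Dlk1 and Dio3 on chromosome 12 were lower in 44 of 45 detected cases, from 101992 to 78350 CPM in sum. Because both groups were lower in replicate 2, leaving them out of the library totals lowers every log2 ratio by the same amount. The median over all detected genes moved from 0.02 to -0.03. Mir196b then had a log2 ratio of 0.30, Mir196a-2 0.21 and Mir615 0.17. Mir10a had 0.03 and was no longer called, and Mir10b had -0.07 and was called lower. These changes in calls follow from the changed total. On that scaling the test called 66 detected genes higher and 106 lower, against 86 and 87 before. The direction of Mir10b was lower under every scaling run, with log2 ratios from -0.07 to -0.01.

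**Figure D4:**
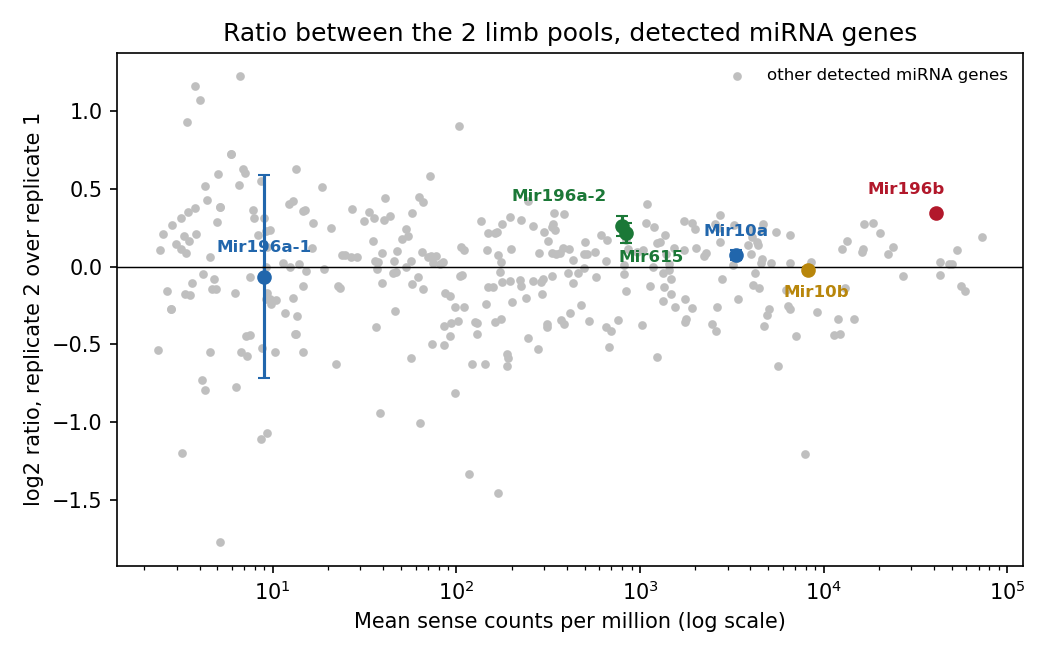
The log2 ratio of replicate 2 over replicate 1 against mean sense CPM (log scale) for the 340 detected miRNA genes, with the Hox cluster genes coloured and given exact 95% intervals. Mir196b, Mir196a-2 and Mir615 lie above 0 at 0.35, 0.26 and 0.22, and Mir10b lies near 0.

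The antisense strand held almost no reads at these genes. Mir10a had 1 antisense count in replicate 1, and all other members had 0 in both replicates. Their positions overlap no annotated gene on the opposite strand, so the sense counts hold no reads of an annotated antisense partner.

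The miR-10 genes also belong to a wider family outside the Hox clusters, with the miR-99, miR-100 and miR-125 genes. miR-10a-5p and miR-100-5p share an 11-base stretch (guagauccgaa) but have different seeds, since that of miR-99a-5p, miR-99b-5p and miR-100-5p is ACCCGUA. Mir99a had 49600 and 50102 CPM, and lay 6.15-fold above Mir10b in replicate 2. Mir99b had 15036 and 18200 CPM and Mir100 12152 and 13150 CPM, both above Mir10b in both replicates. Mir125a, with 5134 and 5221 CPM, lay between Mir10b and Mir10a.

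Mir125b-1 (929 and 992 CPM) and Mir125b-2 (496 and 492 CPM), like the Mir196a pair, share an identical mature 5p sequence, and reads of it entered neither gene. Their counted reads differed by 1.87-fold and 2.01-fold, far less than those of the Mir196a pair, where Mir196a-1 had only 39 and 45 counts. Without the shared 5p reads, these ratios do not compare the output of the genes. Of the 6 family members outside the Hox clusters, 4 were higher in replicate 2 past the threshold and 0 lower, with a median log2 ratio of 0.06. The share called higher was 25.3% of all detected genes, and 34.0% of those with at least 100 counts.

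By level in the 2 libraries, the genes nearest to each member were found by the distance of their log2 CPM over the pair of values. Mir196b lay nearest to Mir322 (42676 and 43563 CPM, distance 0.26) and to the chondrocyte gene Mir140 (distance 0.31). Mir10b lay nearest to Mir652 (8448 and 8609 CPM, distance 0.08) and Mir143 (distance 0.30), and Mir10a to Mir296 (3333 and 3463 CPM, distance 0.04) and Mir342 (distance 0.09). Of the HoxC pair, Mir196a-2 had Mir615 as its nearest gene (distance 0.11) with Mir467c next (distance 0.12), while Mir615 lay nearest to Mir467c (786 and 886 CPM, distance 0.03) and Mir210 (distance 0.10). Mir196a-1 lay nearest to Mir3066 (39 and 47 counts) and Mir302a (42 and 45 counts). With 2 libraries this says only that the levels are alike.

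Hox messenger RNAs were not measured here, and their sequences were searched to show what the miR-196 and miR-615 seeds can pair with. The 3′ untranslated region (UTR) of the principal transcript was read from GENCODE M21 for 38 Hox genes and for 20828 protein-coding genes in all, on the transcribed strand only. The 7 bases that pair with the miR-196 seed, ACUACCU, occurred in 8 Hox genes (21.1%) and in 5.65% of all protein-coding genes. The 8 were Hoxa4, Hoxa5, Hoxa7, Hoxa9, Hoxb1, Hoxb6, Hoxb7 and Hoxc8, and Hoxa7 held 4 copies and Hoxc8 held 2. In the first 500 bases of the UTR, among genes with at least that length, 7 of 32 Hox genes (21.9%) held it, against 1.96% of 13395 genes. One of them, Hoxa9, is the host of Mir196b.

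For miR-615-3p the match GGCUCGG was found in 1 Hox gene, Hoxb4, and for miR-615-5p the match GGACCCC in 4 (Hoxa11, Hoxb13, Hoxc11 and Hoxc6). The shares over all protein-coding genes were 2.06% and 6.04%. In the first 500 bases the miR-615-5p match was in 4 of 32 Hox genes (12.5%), against 3.24% of all, and the miR-615-3p match was in 0 of 32, against 0.896%. These shares are descriptions and were not tested. A match describes these letters and is neither a site nor a sign of repression.

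The Hox UTRs were also searched for ungapped alignments over the full miRNA length, ranked by Watson-Crick pairs anywhere along it. For miR-196a-5p the most pairs were in Hoxb8, which does not hold ACUACCU. The site is shown because it is the known cleavage target of miR-196, and capitals mark the bases opposite the seed.
Hoxb8 site: cccaacaacaugaaACUGCCUa
Of the 22 bases of miR-196a-5p, 21 formed Watson-Crick pairs with it and the remaining one, at position 5, a G:U pair. For miR-196b-5p 20 formed Watson-Crick pairs and 1 a G:U pair. The next highest number for miR-196a-5p was 14 Watson-Crick pairs, reached by at least the UTRs of Hoxa7 (with 3 G:U pairs) and Hoxb13 (with 2). For miR-10a-5p and miR-10b-5p no Hox UTR gave more than 14 and 15 Watson-Crick pairs of 23, counted in the same ungapped way.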

How the data were processed

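The deposited tables held whole-number read counts per miRNA gene as made by the authors, not normalized, on assembly mm10 with annotation M4, per the deposited README. The aligner, counter and their versions are not given in the sources used here. The columns carry no header. From the values, the first is the sum of the others, and the second was taken as sense. Reads with several alignments, 29.4% and 29.7% of the reads, stood on a line of their own and entered no gene.

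Symbols and positions came from GENCODE M21 on GRCm38, by gene identifier without version (1894 of 1973 matched). Searches of positions, precursors and mature sequences cover the matched genes only. M21 has newer versions of the Mir10b and Mir196a-2 models, so their counted intervals may differ from the positions given. Precursors and UTRs came from GENCODE M21 and mature sequences from RefSeq. Matches of the miR-10 seed in Hox UTRs are not reported here.

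Tests used scipy 1.17.1 in Python 3.11.15. Alternatives used edgeR 4.0.16 and DESeq2 1.42.0 size factors in R 4.3.3. With 1 group, no model with replicates on each side could be fitted. The test was checked on simulated counts that vary by counting error alone, so the check does not cover variation between pools.

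Named genes are the 6 members, other counted miRNA genes in the Hox clusters, the 2 detected genes nearest to each member in log2 CPM, the wider miR-10 family and tissue markers. Of the neuronal markers, Mir9-3 had 9 and 7 counts. Members and lists were chosen with earlier results of these data known.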

Additional observations from a re-analysis of the deposited data

How the results depend on the processing

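No paired analysis was possible because the series has 1 group. Of 30 alternative values for the log2 ratios of the 6 genes, 27 kept their direction and side of the threshold, 1 fell short of it, 2 newly passed it and 0 reversed. From one library alone, which with 2 libraries is no check of stability, the share of the 6 genes was 4.89% or 5.90%, the miR-196 to miR-10 ratio 3.18 or 4.02, and 6 genes were detected in either. With at least 100 counts required, 5 were detected. With all reads as the library total, the share became 2.54% and the levels 1568 (Mir10a), 3853 (Mir10b), 4.20 (Mir196a-1), 375 (Mir196a-2), 19159 (Mir196b) and 395 (Mir615) counts per 1000000 reads, by construction. With counts irrespective of strand Mir10b had 7934 CPM and Mir196a-1 had 8.64 CPM, since that total is larger. The number of members called higher was 4 under TMM and DESeq2 size factors, 3 without the muscle and Dlk1-Dio3 genes in the total, and 0 under edgeR's exact test. The number called lower was 1, Mir10b, under DESeq2 size factors (log2 ratio -0.041) and 1 without the muscle and Dlk1-Dio3 genes in the total (-0.069), where Mir10a was 0.028 and not called. A total without Mir196b, chosen after seeing the data, gave 4 higher and 0 lower. Of all 340 detected genes, 90 were called higher and 86 lower under TMM, and 76 and 91 under DESeq2 size factors. The calls over these 340 genes were 66 and 106 without the muscle and Dlk1-Dio3 genes in the total. They were 92 and 85 without Mir196b, and 0 and 3 under edgeR's exact test. Without a count minimum, 694 genes were tested and 83 were called higher and 87 lower. The values of Mir196a-1 were limited most, by its few counted reads, which leave out the shared miR-196a-5p.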
